A study of Mus musculus with 2 samples.

Results

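The 5 structured noncoding RNAs of mouse embryonic stem cells described here are Rn7sk (7SK RNA), Rn7s1 and Rn7s2 (copies of 7SL RNA), Rmrp (the RNA of RNase MRP) and Terc (telomerase RNA). They were chosen as the rows of the count table whose Ensembl identifier carries one of these symbols in the GENCODE annotation of GRCm38, which gave 5 of 46983 rows. Rmrp has 2 annotated identifiers, of which 1 is a row of the table. RNA was sequenced from 46C cells, a stem cell line that carries GFP at Sox1 as a neural reporter, kept with feeders in medium containing serum and LIF. The linc1557 knockdown library came from stably infected clones carrying a short hairpin RNA in the pLKO.1-TRC vector against the long noncoding RNA linc1557. The control shRNA library came from cells with a control hairpin, and in both cases resistant colonies were picked under puromycin. The labels do not say how many clones entered a library. The comparison asks which transcripts differ once linc1557 is depleted. With 1 library per group differences have no replicate check and were not tested, and bracketed 95% intervals cover counting error only.

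These RNAs work as parts of ribonucleoprotein machines. 7SK RNA, bound by LARP7 and MEPCE, holds the elongation kinase P-TEFb inactive together with HEXIM proteins. 7SL RNA is the scaffold of the signal recognition particle, which brings ribosomes that make secretory and membrane proteins to the endoplasmic reticulum. RMRP is the RNA subunit of RNase MRP, which cleaves precursor ribosomal RNA and shares most of its proteins with RNase P. TERC carries the template from which TERT, the reverse transcriptase of telomerase, adds telomere repeats, and telomerase is active in embryonic stem cells. RNA polymerase III makes 7SK, 7SL and RMRP, whereas mouse Terc is made by RNA polymerase II.

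Sequences of Rn7sk, Rmrp and Terc are printed first because they show the features that the counts are read against. They are transcript sequences of GENCODE release M21 on GRCm38, 5′ to 3′ in the letters of DNA, with Rn7sk cut after base 250 and Terc after base 150. In Rn7sk the capitals mark GATC, since GAUC in the 5′ hairpin of human 7SK is where HEXIM binds. In Rmrp they mark the bases that face an exon of Ccdc107 on the opposite strand, and in Terc the CTAACCC that is complementary to the telomere repeat.
Rn7sk: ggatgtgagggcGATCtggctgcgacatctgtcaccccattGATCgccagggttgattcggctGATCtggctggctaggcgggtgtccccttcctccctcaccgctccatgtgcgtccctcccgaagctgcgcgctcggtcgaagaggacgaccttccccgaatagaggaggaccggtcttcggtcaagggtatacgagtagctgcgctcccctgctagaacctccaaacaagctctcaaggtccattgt
Rmrp: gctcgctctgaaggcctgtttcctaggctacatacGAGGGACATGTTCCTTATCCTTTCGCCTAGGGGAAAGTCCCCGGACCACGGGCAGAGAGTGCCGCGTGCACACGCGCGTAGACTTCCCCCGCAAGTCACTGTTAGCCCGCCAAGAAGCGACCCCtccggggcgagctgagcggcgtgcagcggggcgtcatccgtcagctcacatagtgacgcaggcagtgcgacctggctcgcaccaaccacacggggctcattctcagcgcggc
Terc: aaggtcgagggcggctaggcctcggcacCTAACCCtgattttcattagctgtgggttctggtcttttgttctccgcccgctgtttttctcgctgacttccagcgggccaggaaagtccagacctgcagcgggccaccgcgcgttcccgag

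Rn7sk is the minus-strand interval chr9:78175303-78175633 (ENSMUSG00000065037), Rmrp chr4:43492788-43493058 on the minus strand (ENSMUSG00000088088) and Terc chr3:96414437-96414859 on the minus strand (ENSMUSG00000064796). Rn7s1 lies at chr12:69159295-69159594 on the plus strand (ENSMUSG00000099021), and Rn7s2 at chr12:69361182-69361481 on the minus strand (ENSMUSG00000099250). Each is a single-exon noncoding gene, of 331 bases for Rn7sk, 300 for each 7SL copy, 271 for Rmrp and 423 for Terc. The annotated sequences of Rn7s1 and Rn7s2 are identical over all 300 bases. GATC occurs at bases 13 to 16, 42 to 45 and 64 to 67 of Rn7sk, counted from its 5′ end. It is a common word, found on the printed strand in 69.8% of the 3258 single-transcript genes of 271 to 423 bases. CTAACCC occurs once in Terc and in 0.675% of the same genes. The Ensembl model of Terc begins 26 bases upstream of the RefSeq model, which is 397 bases long, so CTAACCC sits at bases 29 to 35 of the printed model and at bases 3 to 9 of the RefSeq one.

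The members differ widely in how much of their sequence is their own. All 251 windows of 50 bases in Rn7s1 also occur in Rn7s2, and 49.4% of them in Rn7s6, a further 7SL copy. Of the 282 windows of Rn7sk, 68.1% occur in at least 1 of 7 other annotated models, chiefly Gm24447 and Gm26315. Rmrp shares 33.8% of its windows with 1 gene, Ccdc107, which is read from the other strand of the same locus. Terc shares none with any other annotated gene.

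All 5 members were abundant enough to pass the filter of 1 CPM (library-scaled counts) in either library, and none differed by 2-fold. Rn7sk, Rn7s1, Rn7s2 and Rmrp each stood between 1.14-fold and 1.16-fold of the control level in the knockdown library, and Terc at 1.06-fold. Over all genes that passed the filter, 14.2% were called, that is, at least 2-fold apart with an interval that excludes 1, so 0 of 5 is set against that share. By direction, 4.68% of genes were called higher and 9.48% lower, and with a threshold of 1.5-fold, which no member passed either, 27.9% were called. An interval that excludes 1 at any size is common at this depth, being found for 63.9% of genes in either direction and for 32.8% on the higher side. Together the 5 members took 3.01% (3.00 to 3.01, Wilson) of the counts in the knockdown library and 2.84% (2.83 to 2.84) in the control library. RNAs of this kind are mostly made without poly(A) tails, and the labels name a TruSeq RNA kit without stating whether poly(A) RNA was selected, so these shares describe the libraries and not the cells.

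**Figure D1:**
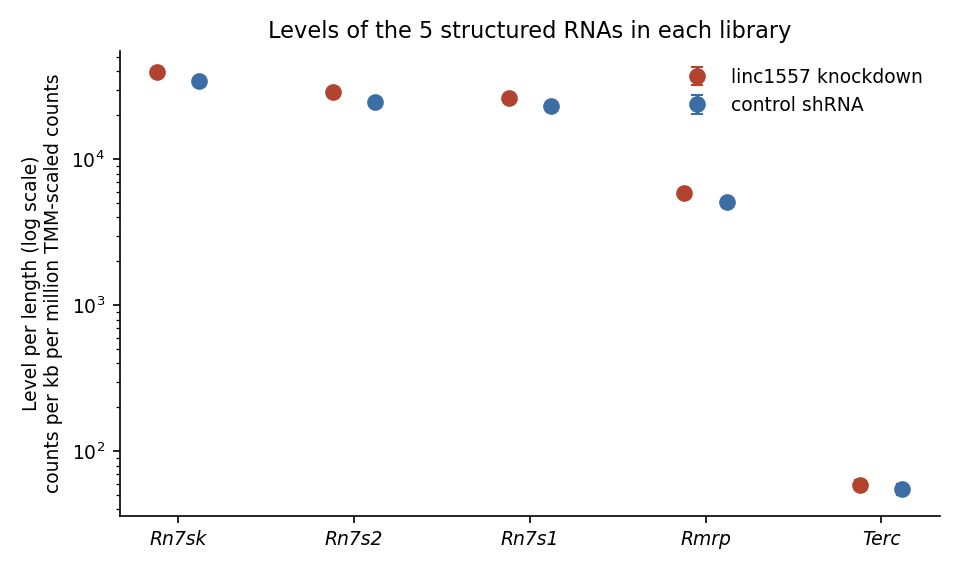
Level per length of each member (vertical axis, log scale, TMM-scaled CPM per kilobase) in the linc1557 knockdown library (red, left) and the control shRNA library (blue, right); bars are exact 95% Poisson intervals, mostly smaller than the points. Rn7sk lies at 39612 in the knockdown and 34513 in the control, and Terc at 58.6 in the knockdown and 55.1 in the control.

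Rn7sk, the RNA that restrains P-TEFb, had 335929 counts in the knockdown library against 275485 in the control library. Per length this was a level of 39612 in the knockdown library against 34513 in the control library, in TMM-scaled CPM per kilobase as for all levels below. It was the fifth highest of 15850 entered rows in either library. Rows above it include Gm47305 and Gm47287, models of 70 bases inside Rn7s2 and Rn7s1 with nearly the counts of those rows. The ratio of Rn7sk was 1.15-fold (1.14 to 1.15), or 0.20 on the log2 scale. It is slightly above the median log2 ratio of all genes entered, which was 0.02 with quartiles of -0.35 and 0.33.

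The 2 most abundant models that share sequence with 7SK had lower ratios than Rn7sk. Gm24447, whose first 241 bases are identical to those of Rn7sk, had 35096 counts in the knockdown library against 32493 in the control library, a ratio of 1.02-fold (1.00 to 1.03). Gm26315, identical over a run of 235 bases, had 31128 knockdown and 29780 control counts and a ratio of 0.984-fold (0.968 to 1.00). Measured within each library, which removes the scaling between libraries, Gm24447 had 0.104 counts per Rn7sk count in the knockdown library against 0.118 in the control library, a quotient of 0.886 (0.872 to 0.900). For Gm26315 the same figures were 0.0927 for the knockdown and 0.108 for the control, a quotient of 0.857 (0.843 to 0.872). Together the 7 models other than Rn7sk held 16.5% of the 7SK-like counts in the knockdown library against 18.5% in the control library. Whether their counts come from their own transcripts or from 7SK reads placed at a copy cannot be told from counts per gene.

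7SL RNA, the scaffold of the signal recognition particle, is represented by a pair of rows with 1 sequence. Rn7s1 had 202812 counts in the knockdown library against 167409 in the control library, a ratio of 1.14-fold (1.13 to 1.15). Rn7s2 had 222986 knockdown and 180164 control counts, a ratio of 1.16-fold (1.16 to 1.17). No read from inside the RNA can be assigned to one of them, so the pair is 1 measurement and not a check of one row by the other. Rn7s1 took 47.6% of the pair's counts in the knockdown library and 48.2% in the control library, and Rn7s2 had 9.95% more counts than Rn7s1 under knockdown and 7.62% more under the control hairpin, which is beyond counting error in both. How reads with several equal placements were counted is not given in the sources used here.

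That gap bears on the order of the levels. Taken singly, Rn7s2 had 29011 and Rn7s1 26386 CPM per kilobase in the knockdown library, against 24903 and 23140 in the control library, both below Rn7sk. Summed, the pair reached 55397 in the knockdown library against 48044 in the control library, above Rn7sk. Which order is right depends on whether a read was counted at 1 copy or at both. Neither order changed between the libraries.

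Rn7s6 shares a run of 173 bases with Rn7s1, from base 42 to base 214, and is 83.2% identical to it in all. It had 26541 counts in the knockdown library against 18850 in the control library. The ratio of 1.33-fold (1.30 to 1.35) is above those of Rn7s1 and Rn7s2, and within the libraries there were 0.131 Rn7s6 counts per Rn7s1 count for the knockdown and 0.113 for the control, a quotient of 1.16 (1.14 to 1.19). It was not called. Summing both members and the 5 other 7SL-like models gave a 1.16-fold ratio (1.16 to 1.17).

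Short miRNA models laid over the 7SL genes show where along the RNA the counted reads fell. Gm47287 covers bases 143 to 212 of Rn7s1 and had 201809 counts in the knockdown library against 166125 in the control library, nearly the count of the whole gene. It held 99.5% of the Rn7s1 count in the knockdown library against 99.2% in the control library, so nearly the same number of reads was counted for the short model as for the whole gene. Gm47295, over the last 77 bases of Rn7s1 and 2 bases beyond, had 8251 knockdown and 8912 control counts. If reads were counted for each model they overlap, nearly all touched the centre of the RNA and few reached its 3′ end.

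The 3′ part and the centre did not have the same ratio. Gm47295 held 4.07% (3.98 to 4.16, Wilson) of the Rn7s1 count in the knockdown library and 5.32% (5.22 to 5.43) in the control library, a quotient of 0.764 (0.741 to 0.788). At the other copy, Gm47299 with 9135 knockdown and 9693 control counts held 4.10% (4.02 to 4.18) of the Rn7s2 count in the knockdown and 5.38% (5.28 to 5.49) in the control library. The copies share their sequence, so this is the same difference seen again and not a second measurement. In ratios between libraries, Gm47295 stood at 0.871-fold (0.846 to 0.898) and Gm47287 at 1.14-fold (1.14 to 1.15). Read length, fragment size and RNA quality are not given per library in the sources used here, and their part in this difference was not tested.

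**Figure D2:**
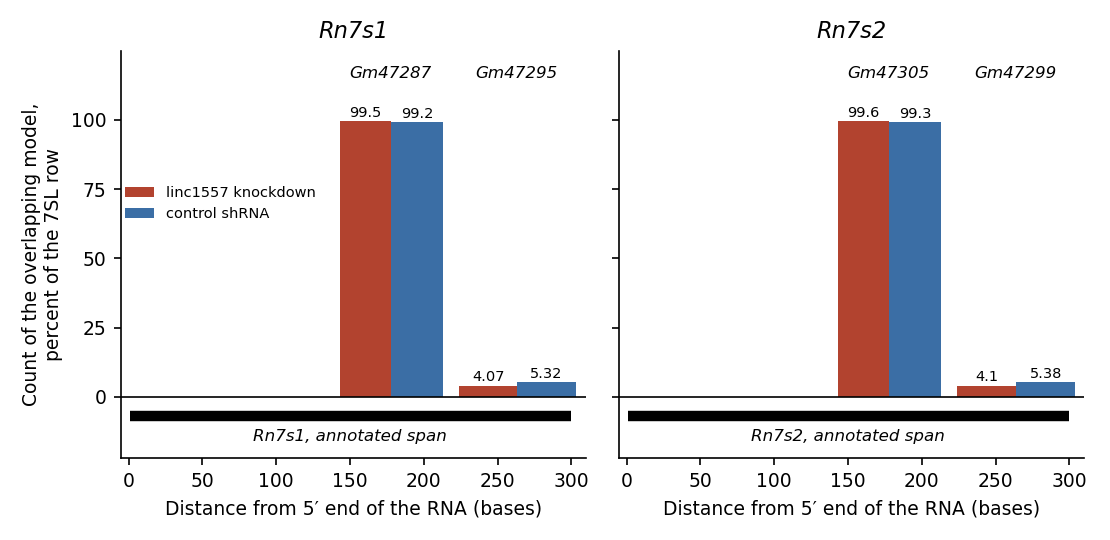
Counts of the miRNA models that overlap Rn7s1 and Rn7s2, as a percentage of the count of the 7SL row (vertical axis), drawn over the bases each model covers (horizontal axis, distance from the 5′ end of the RNA); within a model the left bar is the linc1557 knockdown and the right bar the control shRNA library. The central models hold over 99% of the count and the 3′ models 4.07% and 4.10% in the knockdown against 5.32% and 5.38% in the control library.

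Rmrp, the RNA of RNase MRP, had 40673 counts in the knockdown library against 33121 in the control library. Its level per length was 5858 CPM per kilobase for the knockdown and 5068 for the control, the 13th highest in both. The ratio was 1.16-fold (1.14 to 1.17). Ccdc107, the gene on the opposite strand, has an exon of 124 bases that lies wholly inside Rmrp, yet it had 178 counts in the knockdown library against 159 in the control library. Few or none of the reads of Rmrp were thus counted for its opposite-strand neighbour.

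RNase MRP shares most of its protein subunits with RNase P, so Rpph1, the RNA of RNase P, is the natural companion of Rmrp. Rpph1 had 69690 counts in the knockdown library against 79659 in the control library, a ratio of 0.823-fold (0.815 to 0.832). The 2 RNAs therefore lay on opposite sides of 1, and neither was called. Rpph1 lies at chr14:50807449-50807767. The genes around it were not examined here, so a part of its region in this ratio was not tested. Within a library there were 0.584 Rmrp counts per Rpph1 count in the knockdown library against 0.416 in the control library. The quotient of 1.40 (1.38 to 1.43) does not depend on the scaling between libraries, and its interval covers counting error only.

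Terc, the telomerase template RNA, was the least abundant member, with 635 counts in the knockdown library against 562 in the control library. Its level per length was 58.6 (54.1 to 63.3, Poisson) in the knockdown and 55.1 (50.6 to 59.8) in the control library, in CPM per kilobase. With the shorter RefSeq length these become 62.4 for the knockdown and 58.7 for the control. The ratio was 1.06-fold (0.948 to 1.19), an interval that includes 1, and scaling by total counts put it at -0.03 on the log2 scale. A difference of this size was not detectable at this depth, and the interval lies wholly inside 2-fold in either direction.

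By level per length the order was Rn7sk, Rn7s2, Rn7s1, Rmrp and Terc in both libraries. Neighbouring members did not overlap in their counting intervals in either library, but the gap between the 7SL rows is one between identical sequences. There were 64.1 Rmrp counts per Terc count in the knockdown library against 58.9 in the control library. Among all genes, those with the pair of levels nearest to Terc, by Euclidean distance of log2 levels per length over the 2 libraries, were Hist1h2br (0.03), Rpl27-ps3 (0.04) and Aplp2 (0.05). Nearest to Rmrp were Gm47299 (0.39), mt-Co1 (0.48) and Gm47295 (0.54). Gm47299 and Gm47295 lie over the 3′ ends of the identical 7SL rows and are not separate measurements. For Rn7s1 and Rn7s2 the nearest were each other (0.17), the ribosomal RNA model CT010467.1 (0.19 from Rn7s1 and 0.29 from Rn7s2) and Rn7sk (0.82 and 0.65). Nearest to Rn7sk were AY036118, a model inside that ribosomal locus (0.52), Rn7s2 (0.65) and Rn7s1 (0.82).

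**Figure D3:**
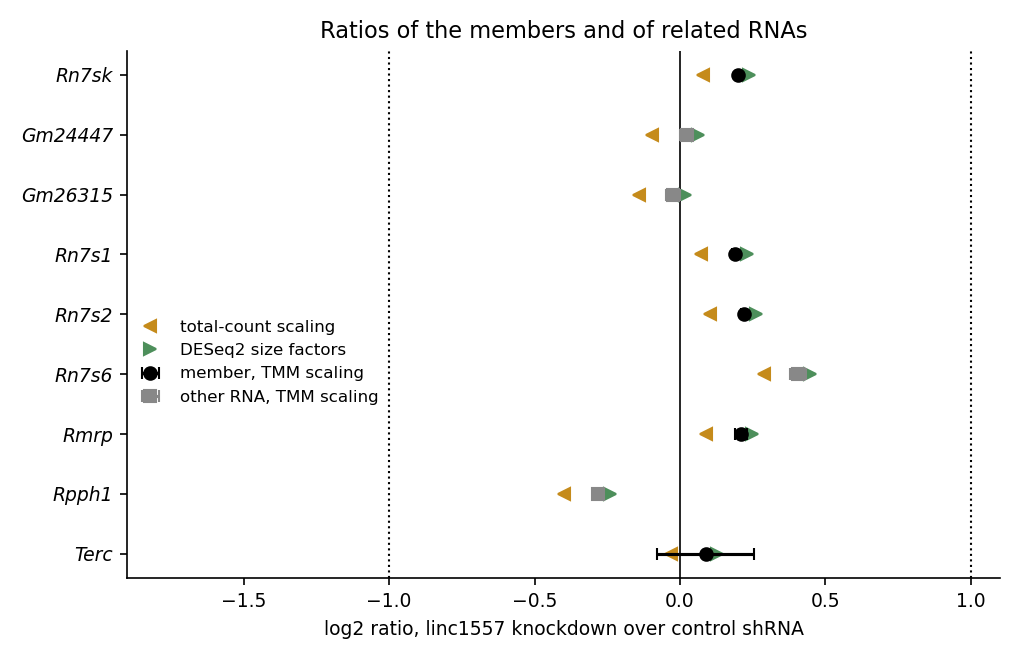
log2 ratio of linc1557 knockdown over control shRNA (horizontal axis) for the 5 members (circles) and 4 related RNAs (squares), with 95% counting intervals under TMM scaling; triangles give the ratio with total counts (left-pointing) or DESeq2 size factors (right-pointing), and dotted lines mark 2-fold. Every point lies between the dotted lines, and Rn7sk, Rn7s1, Rn7s2 and Rmrp lie close together near 0.20.

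The members kept nearly the same proportions to each other in both libraries. Among the 6 pairs without Terc, the quotient of their counts in the knockdown over the same quotient in the control library ranged between 0.979 and 1.01. Such a quotient is free of the scaling between libraries. Of these pairs, 2 had an interval excluding 1, both with Rn7s2, namely Rn7sk over Rn7s2 at 0.985 (0.977 to 0.993) and Rn7s1 over Rn7s2 at 0.979 (0.970 to 0.988). The 7SL rows have identical sequences and are 1 measurement, so pairs that differ only in the 7SL row are not separate ones. Rn7sk over Rn7s1 was 1.01 (0.998 to 1.01), and how reads were split between the 7SL rows is uncertain. The 4 pairs with Terc ranged between 1.07 and 1.095, with 0 intervals excluding 1. Their common ratio to the control library, in contrast, does depend on the scaling. Relative to TMM, scaling by total counts shifted the log2 ratio of every gene by -0.12, and DESeq2 size factors by 0.04. Rn7sk thus lay between 1.06-fold with total counts and 1.18-fold with DESeq2 size factors.

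**Figure D4:**
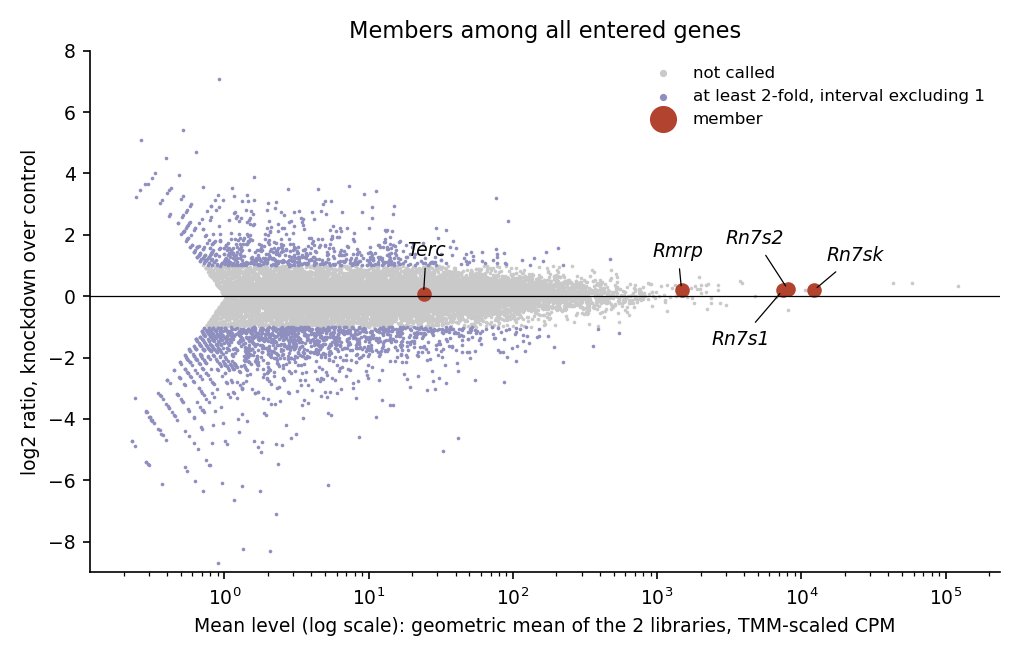
log2 ratio of linc1557 knockdown over control shRNA (vertical axis) against mean level (horizontal axis, log scale, geometric mean of TMM-scaled CPM, a library's level below 0.05 being taken as 0.05) for the 15850 genes that passed the filter; called genes are blue-grey and the members red. The members lie near 0 and, apart from Terc, at the abundant end.

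Genes of similar length or abundance give a nearer setting than all genes. The 238 other entered genes of 271 to 423 bases had a median log2 ratio of 0.07, with 14 higher and 5 lower. Of all entered genes, 4.68% were called higher and 9.48% lower. The 100 genes with the highest CPM, which include members, had a median of 0.10 and a range of -0.61 to 0.64, with 0 called. A ratio within 1.2-fold in either direction, where all 5 members lie, was found for 41.0% of all entered genes.

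The protein partners of the members were lists chosen by complex, and 2 of their 108 genes (1.85%) were called, against 14.2% of all genes. For 7SK these were the 7 genes of its ribonucleoprotein and of P-TEFb, with 0 called and a median log2 ratio of -0.08. Larp7, which binds the 3′ end of 7SK, had 1061 counts in the knockdown library against 1127 in the control library (log2 ratio -0.17), and Mepce, which caps its 5′ end, had 805 knockdown and 802 control counts (-0.08). The inhibitor gene Hexim1 had 579 knockdown and 607 control counts (-0.16), the kinase gene Cdk9 679 knockdown and 844 control counts (-0.40), and the cyclin gene Ccnt1 2283 knockdown and 1704 control counts (0.33). Of 12 genes for the super elongation complex and bromodomain recruiters of P-TEFb, 0 were called, with a median of -0.16 and a range between -0.71 for Mllt1 and 0.75 for Aff1.

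The genes for signal recognition particle proteins had a median log2 ratio of 0.41, with 0 of 7 called. All 7 ratios were above 1, as were those of 8219 of the 15850 entered genes and of 7 of 8 stem cell markers, whose median was 0.37. Srp54a, for the subunit that binds signal sequences, had 791 counts in the knockdown library against 394 in the control library, a ratio of 1.89-fold (1.67 to 2.14), and its close copy Srp54c had 3216 knockdown and 1990 control counts, a ratio of 1.52-fold (1.44 to 1.61). Both are copies of 1 gene, and how their reads were split is uncertain. Srp14, whose protein joins Srp9 at the Alu domain of 7SL, had 1380 knockdown and 976 control counts (log2 ratio 0.41), and Srp9 had 1347 knockdown and 1048 control counts (0.27). Srp72 had 4580 knockdown and 3061 control counts (0.49) and Srp68 953 knockdown and 788 control counts (0.19). Of 14 receptor and translocon genes 0 were called, with a median of 0.06. Srpr, the receptor subunit that docks the particle, had a log2 ratio of 0.21 and the channel gene Sec61a1 0.08.

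Of 12 genes for proteins of RNase MRP and RNase P, 0 were called and the median log2 ratio was 0.17. Pop1, the largest shared subunit, had 1427 counts in the knockdown library against 1213 in the control library (0.15), and Rpp30 and Rpp21 marked the ends of the range at 0.56 and -0.53. Of 12 telomerase genes 0 were called, with a median of 0.04. Tert, the catalytic subunit, had 283 counts in the knockdown library against 308 in the control library, a ratio of 0.865-fold (0.733 to 1.02). Dkc1, the pseudouridine synthase that stabilises the H/ACA end of TERC, had 5249 knockdown and 4409 control counts (0.16), and Gar1, of the same particle, 443 knockdown and 623 control counts (-0.58). The 11 shelterin and telomere maintenance genes had 0 called and a median of 0.23.

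RNA polymerase III makes 7SK, 7SL and RMRP. Its 13 subunit genes had a median log2 ratio of 0.06, with 1 gene called higher and 1 called lower, a share close to the 14.2% called among all genes. Polr3gl had 704 counts in the knockdown library against 150 in the control library and was 4.42-fold higher (3.70 to 5.30). Its paralogue Polr3g, the form of this subunit known from pluripotent cells, had 2714 knockdown and 1616 control counts, a ratio of 1.58-fold (1.49 to 1.68) that was not called. Polr3d had 409 knockdown and 787 control counts and was 2.04-fold lower (1.81 to 2.31), a call that was not made with DESeq2 size factors. It lies on chromosome 14, as does Rpph1, and a part of its region in this ratio was not tested. Of 20 genes for initiation factors and regulators 0 were called, with a median of 0.11. Among them Snapc1, of the complex that starts transcription at the 7SK and RMRP promoters, had 266 knockdown and 156 control counts (0.68), and Ssb, the La protein that binds new polymerase III transcripts, 7771 knockdown and 5501 control counts (0.41).

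**Figure D5:**
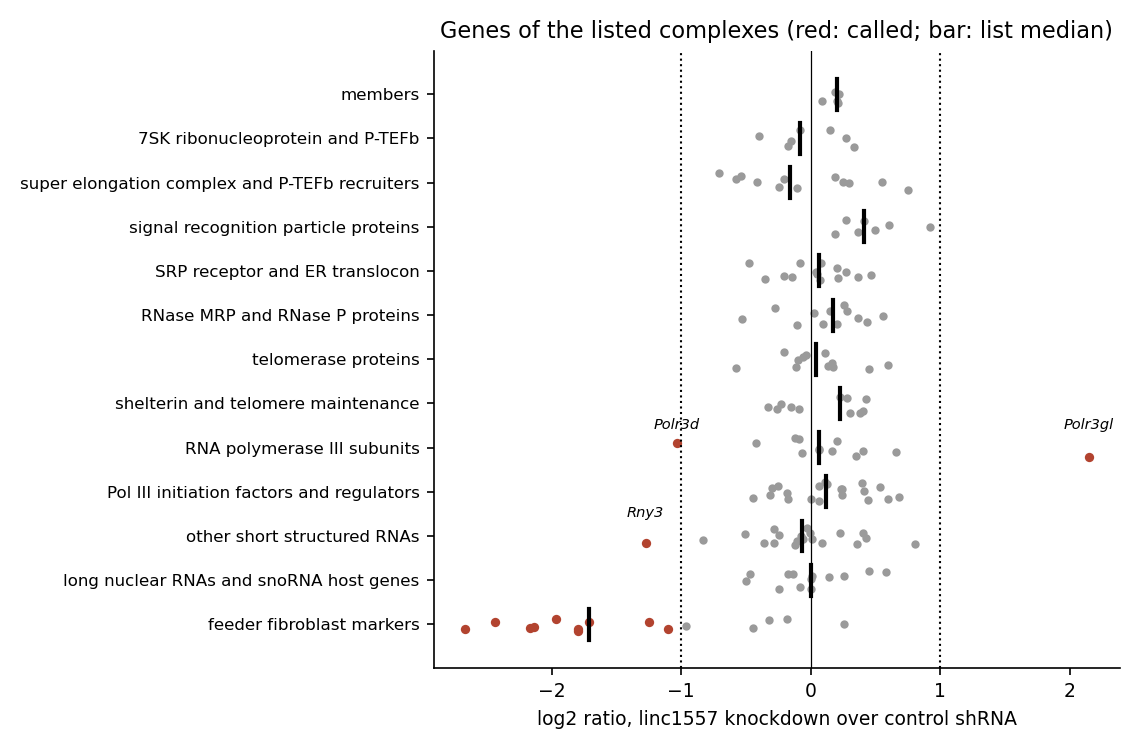
log2 ratio of linc1557 knockdown over control shRNA (horizontal axis) for every entered gene of each list shown (rows); red points are called, black bars are list medians, and dotted lines mark 2-fold. Outside the feeder fibroblast markers the called genes are Polr3gl, Polr3d and Rny3.

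Other short structured RNAs showed no common direction. The 20 that entered had a median log2 ratio of -0.06, with 1 called lower and 0 called higher. The lower one was Rny3, a Y RNA made by RNA polymerase III, with 36 counts in the knockdown library against 82 in the control library, 2.42-fold lower (1.62 to 3.69), and it was too low to enter with a filter of 5 CPM. The U1 gene Rnu1a1 had 1838 knockdown and 1632 control counts (0.08), and Scarna10, a guide RNA of Cajal bodies, 1275 knockdown and 687 control counts (0.80). Long nuclear RNAs and snoRNA host genes had 0 of 13 called and a median of 0.00. Malat1 had 123204 knockdown and 115544 control counts, a ratio of 1.00-fold (0.996 to 1.01).

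The libraries held 26693282 counts for the knockdown and 23146210 for the control. No annotated name matched linc1557, so the knockdown itself was not analysed here. All 8 markers of embryonic stem cells were expressed, with 0 called, a median log2 ratio of 0.37 and a summed level of 2630 CPM in the knockdown library against 1958 in the control library. Of 15 feeder fibroblast markers, 10 were called lower and 0 higher, against 9.48% and 4.68% of all entered genes. None had a count of 0, and their median log2 ratio was -1.71. Their summed level was 1372 CPM in the knockdown library against 2238 in the control library. Most of both sums was Fn1, at 1058 CPM for the knockdown and 1199 for the control (log2 ratio -0.18, not called). In such bulk samples fewer cells of a type and less RNA per cell cannot be told apart. The part of the feeder marker difference in the ratios of the members was not tested.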

How the data were processed

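The deposited table holds raw read counts per gene for each of 2 libraries and a gene length column in bases. The submitters' processing notes list DESeq, featureCounts, HISAT2 and Trim Galore, and name GRCm38 and mm10 as builds. The sources used here give no versions, annotation release, strand setting, rule for reads with several placements or statement on poly(A) selection. Symbols, coordinates and sequences came from GENCODE M21, and the lengths of all 5 members equal those in the table. Of short models inside an exon of an abundant gene, 140 on the same strand had a median of 0.547 of the count their length would give, and 28 on the opposite strand a median of 0.

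TMM factors were computed with edgeR 4.0.16 (0.960 for the knockdown, 1.04 for the control library). A gene entered at 1 CPM in at least 1 library. Each ratio is knockdown over control, with Clopper-Pearson intervals, a count of 0 being set to 3. A gene was called at 2-fold with an interval excluding 1. The rule was tried on simulated Poisson counts, which hold counting error only and cannot show how often replicates would differ. Shared sequence was counted in windows of 50 bases. Python 3.11.15, numpy 2.4.6, pandas 2.3.3, scipy 1.17.1, Biopython 1.88 and R 4.3.3 were used.

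The members and lists were chosen with earlier results of these data known. The rule for named genes took all members, every model overlapping them, the 4 other most abundant models of each noncoding class, the called and the 2 most abundant genes of each list, and the 3 genes nearest to each member in level, of which those that bear on the members are printed. Other list genes were chosen after their values were seen. Alternatives were another scaling, filter, threshold and denominator, centring by length or level, thinning, and reduced or summed overlapping models. Intervals cover counting error only, since PCR duplicates cannot be told from separate molecules. The samples labelled as groups have 1 library each. The sequence of 7SL is not reported here.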

Additional observations from a re-analysis of the deposited data

How the results depend on the processing

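No paired analysis was possible because each group has 1 library. None of the 5 members was called under any setting tried. For Rn7sk, Rn7s1, Rn7s2 and Rmrp, in that order, log2 ratios were 0.0805, 0.0711, 0.10 and 0.0906 with total-count scaling, 0.24, 0.23, 0.26 and 0.25 with DESeq2 1.42.0 size factors, 0.22, 0.21, 0.24 and 0.23 with TMM from nuclear protein-coding genes, 0.15, 0.14, 0.17 and 0.16 centred by gene length, and 0.13, 0.12, 0.15 and 0.14 centred by expression level. Terc ranged between -0.03 and 0.13 and changed sign with total counts alone. Settings added after seeing the data gave 0.21 for the 7SL rows summed, and with copies added 0.16 for Rn7sk and 0.22 for 7SL. Thinning the deeper library, a prior count of 2 and reducing overlapping models left Rn7sk, the 7SL rows and Rmrp within their counting intervals. The number of genes called was 1058 with a filter at 5 CPM, 4415 at 1.5-fold and 541 at 4-fold, against 2245, and in the 11 partner lists, which leave out the stem cell and feeder markers, 13 genes were called at 1.5-fold, against 3. The members' share of counts was 4.29% for the knockdown and 3.82% for the control without ribosomal and mitochondrially encoded RNA. Relative to nuclear protein-coding genes it was 5.04% and 4.44%. It was 3.06% and 2.88% when same-strand models overlapping the members were left out of the total. Overlapping models elsewhere stayed in that total, and both 7SL rows were counted. Rny3 lay below the filter at 5 CPM and had no call there. The depth leaves the interval of Terc on both sides of 1.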

Other observations

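Other classes of short RNA had medians near 0, with 43 entered snRNA models at -0.02 (2 higher, 0 lower) and 222 snoRNA models at 0.05 (8 higher, 3 lower) on the log2 scale. The 10 entered scaRNA models had a median of 0.04 with 0 called, although Scarna2, a guide RNA of Cajal bodies, had 945 counts in the knockdown library against 1264 in the control library, a ratio of 0.704-fold (0.646 to 0.766). The 236 entered lincRNA models had a median of 0.38, with 48 higher and 17 lower. These counts are set against 4.68% of all entered genes called higher and 9.48% called lower.

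Models beside or inside the ribosomal RNA model CT010467.1 on chromosome 17 had ratios on both sides of 1. AY036118 had 1299790 counts in the knockdown library against 898898 in the control library, a ratio of 1.36-fold (1.36 to 1.36), and Gm26917 had 177608 knockdown and 229668 control counts, a ratio of 0.728-fold (0.723 to 0.732).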
